A study of Homo sapiens with 27 samples.

Results

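The thioredoxin system and its binding protein TXNIP were followed in MDA-MB-231 cells, an established human breast cancer line, through 9 genes: the reductases TXNRD1 and TXNRD2, the thioredoxins TXN and TXN2, the peroxiredoxins PRDX1, PRDX2, PRDX3 and PRDX6, and TXNIP. A probe set was taken where the platform annotation named 1 of these genes and no other, which gave 19 probe sets of the 19064 that named 1 gene, and 9 of 11963 genes. No probe set named one of them together with another gene. Total RNA was hybridised to Affymetrix arrays after treatment with 50 µM 5SGlcNAc, which inhibits the O-GlcNAc transferase OGT, with 25 µM Thiamet-G, which inhibits the O-GlcNAcase OGA, or with the vehicle DMSO. OGT attaches single N-acetylglucosamine residues to nuclear and cytosolic proteins and OGA removes them. The cells, 1 unmodified line grown in DMEM with fetal bovine serum in all groups, gave 1 array per treatment at 0, 2, 4, 6, 8 and 24 h and 3 arrays per treatment at 48 h, 27 in all. The series was designed around NRF2 signalling and O-GlcNAcylation of its repressor KEAP1.

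Thioredoxins are small proteins whose paired cysteines reduce disulfides in other proteins. Thioredoxin reductases, which are selenoproteins, restore them with electrons from NADPH, and peroxiredoxins use the reduced thioredoxin to remove peroxides. TXNRD1, TXN, PRDX1 and PRDX2 work mainly in the cytosol and nucleus, and TXNRD2, TXN2 and PRDX3 form the matching chain in mitochondria. PRDX6 has a single catalytic cysteine and is reduced through glutathione. TXNIP, a protein of the arrestin fold, binds reduced TXN and limits glucose uptake. Its transcription responds to glucose through MondoA (MLXIP) at carbohydrate response elements, whereas TXNRD1, TXN and PRDX1 are known targets of NRF2, which acts at antioxidant response elements.

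The promoters of TXNRD1 and TXNIP are shown because these genes had the largest differences from DMSO in each direction among the 9 genes with 5SGlcNAc at 48 h. RefSeq promoters of GRCh38.p14 were matched for 6 of the 9 genes, with 10 start sites, and the 250 bases before each start were searched on both strands. Capitals mark the antioxidant response element core TGACNNNGC in TXNRD1 and the carbohydrate response element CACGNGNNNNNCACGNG in TXNIP.
TXNRD1, first start, chr12:104215529-104215778, plus strand: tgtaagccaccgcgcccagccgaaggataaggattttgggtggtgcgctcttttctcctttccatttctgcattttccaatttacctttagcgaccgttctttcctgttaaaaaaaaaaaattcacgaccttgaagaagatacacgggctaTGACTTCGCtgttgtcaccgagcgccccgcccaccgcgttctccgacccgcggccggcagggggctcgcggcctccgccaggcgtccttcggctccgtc
TXNRD1, second start, chr12:104286782-104287031, plus strand: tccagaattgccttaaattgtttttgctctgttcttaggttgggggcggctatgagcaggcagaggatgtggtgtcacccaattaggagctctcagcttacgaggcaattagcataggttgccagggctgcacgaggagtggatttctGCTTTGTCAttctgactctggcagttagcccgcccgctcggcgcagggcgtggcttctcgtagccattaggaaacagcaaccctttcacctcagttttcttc
TXNIP, chr1:145996580-145996829, minus strand: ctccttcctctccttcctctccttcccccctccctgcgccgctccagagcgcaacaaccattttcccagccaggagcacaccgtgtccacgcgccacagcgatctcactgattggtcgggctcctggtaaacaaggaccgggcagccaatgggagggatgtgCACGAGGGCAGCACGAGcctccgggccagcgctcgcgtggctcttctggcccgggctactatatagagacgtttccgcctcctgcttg
The core began 99 bases before the first TXNRD1 start, as TGACTTCGC, and on the opposite strand 102 bases before the second, where the printed letters read GCTTTGTCA. It occurred in 10.9% of the 35116 promoters searched. The TXNIP match, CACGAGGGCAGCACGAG, began 88 bases before the start, and the motif in the spelling searched occurred in 0.0456% of promoters. Other spellings of this element were not searched, so the share holds for that spelling alone. A plain E-box, CACGTG, which 6.34% of promoters held, was found 157 bases before the PRDX3 start. No other of the 10 promoters held any of the 3 motifs, including the other TXNIP start. Such matches describe the letters and are not evidence of a site in use.

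Levels are log2 RMA values, and their differences are log2 fold changes. The 48 h arrays were deposited to 2 decimals with medians of 7.68 to 7.76 and the others to 6 decimals with medians of 7.43 to 7.53, so levels of the 48 h arrays were not set against other times. Correlations between arrays were at least 0.9967 at 48 h and at least 0.9942 at 0 to 24 h. The difference between 3′ and 5′ ACTB control probe sets, a sign of RNA integrity, was 0.15 to 0.25 in 5SGlcNAc, 0.25 to 0.39 in Thiamet-G and 0.22 to 0.33 in DMSO arrays of 48 h. At 4 h it was 1.24 in the Thiamet-G array and 1.64 in the DMSO array, against 0.42 to 0.949 on the other arrays of 0 to 24 h. All 6 basal or mesenchymal markers (VIM, CD44, EGFR, AXL, CAV1 and MSN) exceeded the array median on all 27 arrays, as did 3 of 6 luminal markers (KRT19, EPCAM and ERBB2), 0 of 5 haematopoietic and 0 of 4 endothelial ones. The luminal PGR and CDH1 were below it on all arrays. The mean linear signal of the basal or mesenchymal markers at 48 h was 12340 to 12680 in 5SGlcNAc, 12820 to 13160 in Thiamet-G and 12800 to 13220 in DMSO arrays, and none of the 6 passed for 5SGlcNAc against DMSO. For the luminal markers it was 704 to 750 in 5SGlcNAc, 902 to 919 in Thiamet-G and 882 to 907 in DMSO arrays, and KRT19 fell with 5SGlcNAc by 0.42 against DMSO (adjusted p = 0.001563). For the endothelial markers it was 79.1 to 84.9, 88.8 to 95.4 and 88.5 to 94.1 in 5SGlcNAc, Thiamet-G and DMSO arrays, and PECAM1 fell with 5SGlcNAc by 0.33 against DMSO (adjusted p = 0.04231). For the haematopoietic markers it was 104 to 106, 100.4 to 104 and 100.3 to 109. The part of RNA integrity or of these markers in the results was not tested. In bulk RNA, fewer cells of a type and less RNA per cell cannot be told apart.

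TXNRD1, the cytosolic reductase, showed the largest difference of the 9 genes at 48 h and was higher with 5SGlcNAc. Its probe set 201266_at (chr12:104215779-104350307, GRCh38.p14) read 13.83, 13.80 and 13.76 in 5SGlcNAc arrays, 13.24, 13.12 and 13.17 in Thiamet-G arrays, and 13.09, 13.07 and 13.08 in DMSO arrays. All 5SGlcNAc arrays lay above every other array. Group means were 13.80 ± 0.04, 13.18 ± 0.06 and 13.08 ± 0.01 in 5SGlcNAc, Thiamet-G and DMSO (SD, n = 3 each). Against DMSO, TXNRD1 rose with 5SGlcNAc by 0.72 ± 0.05 (SE; 95% interval 0.61 to 0.82), or 1.64-fold, at an adjusted p of 4.275e-05 in limma over all probe sets. Against Thiamet-G the difference was 0.62, or 1.54-fold (adjusted p = 8.732e-05). The Thiamet-G arrays also lay above the DMSO arrays, but that difference of 0.10 did not pass the test (95% interval -0.01 to 0.20, adjusted p = 0.3127). The labels do not say whether replicates were separate cultures. The p-values therefore reflect only how these arrays varied among themselves, and that variation may be technical.

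**Figure D1:**
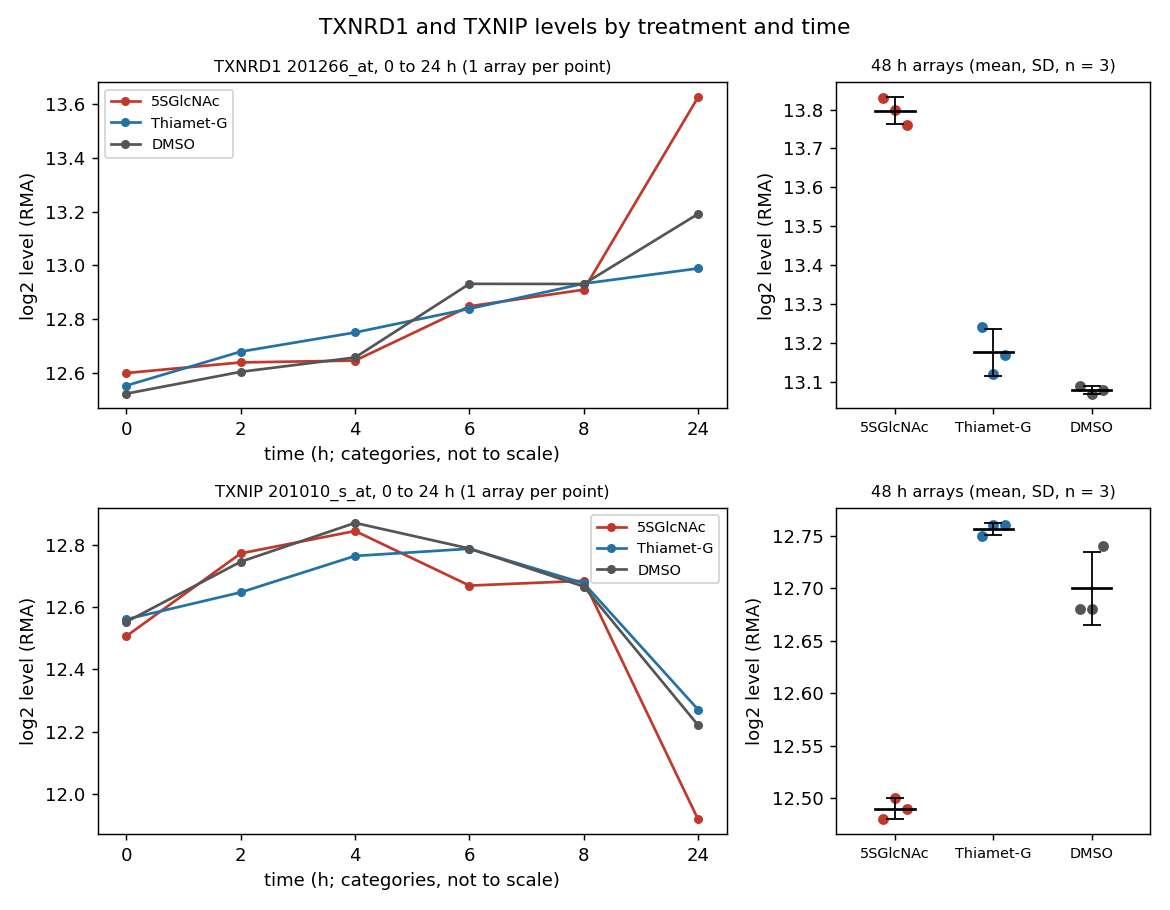
Log2 levels of TXNRD1 201266_at (top) and TXNIP 201010_s_at (bottom) against time in hours on a categorical axis, 1 array per point (left), and on the 48 h arrays, with bars for mean and SD of 3 arrays (right). Among the 48 h arrays, those of 5SGlcNAc lie at 13.76 to 13.83 for TXNRD1, above the rest, and at 12.48 to 12.50 for TXNIP, below the rest.

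TXNRD2, the mitochondrial reductase (chr22:19875522-19941818), showed no such difference. Its brighter probe set, 211177_s_at, averaged 8.69 ± 0.04, 8.67 ± 0.06 and 8.65 ± 0.06 in 5SGlcNAc, Thiamet-G and DMSO arrays (SD, n = 3 each), and the groups overlapped. The difference of 5SGlcNAc from DMSO was 0.04 with a 95% interval of -0.07 to 0.15, which lies below the whole interval of TXNRD1. The dimmer probe set 210803_at gave 0.05 (95% interval -0.15 to 0.25).

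TXN, the cytosolic thioredoxin (chr9:110243810-110256507), was somewhat higher with 5SGlcNAc. Its probe set 208864_s_at read 14.05, 13.94 and 13.96 in 5SGlcNAc arrays, 13.93, 13.89 and 13.93 in Thiamet-G arrays, and 13.80, 13.82 and 13.76 in DMSO arrays. Both inhibitor groups lay entirely above DMSO. The 5SGlcNAc difference of 0.19 ± 0.05 (SE), or 1.14-fold, passed the test (adjusted p = 0.03514), but not without any 1 of the 5SGlcNAc or DMSO arrays or without Thiamet-G replicate 3 (adjusted p up to 0.1275). The Thiamet-G difference was 0.12 (adjusted p = 0.2085), and the inhibitors differed from each other by 0.07 (adjusted p = 0.4126). The second TXN probe set, 216609_at, differed by 0.02 between 5SGlcNAc and DMSO (95% interval -0.11 to 0.15) and did not pass. That interval overlaps the one of 208864_s_at (0.09 to 0.29), and the difference between the probe sets was not tested. With Thiamet-G 216609_at differed from DMSO by 0.11 (adjusted p = 0.3673). TXN2, the mitochondrial thioredoxin (chr22:36467046-36481640), differed by -0.01 on 209078_s_at (95% interval -0.12 to 0.10) and by 0.04 on 209077_at, and passed in no comparison at 48 h.

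PRDX1, an abundant cytosolic peroxiredoxin (chr1:45511051-45522890), read 14.16, 14.08 and 14.10 in 5SGlcNAc arrays, 13.90, 13.97 and 13.96 in Thiamet-G arrays, and 13.91, 13.94 and 13.97 in DMSO arrays. The 5SGlcNAc arrays lay above all others, and the other groups overlapped. PRDX1 rose with 5SGlcNAc by 0.17 against DMSO, or 1.13-fold (adjusted p = 0.04462), and by 0.17 against Thiamet-G (adjusted p = 0.04004). The first call was lost without any 1 of the 5SGlcNAc or DMSO arrays or Thiamet-G replicate 3 (adjusted p up to 0.1539), and the second in those cases and without Thiamet-G replicate 1 (up to 0.141).

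PRDX6 (chr1:173477335-173488815) had 1 of its 2 probe sets past the threshold. On 200845_s_at the 5SGlcNAc arrays read 12.77, 12.80 and 12.77, the Thiamet-G arrays 12.65 each and the DMSO arrays 12.63 each, to the 2 decimals deposited. The 5SGlcNAc arrays were the highest, 0.15 above DMSO (adjusted p = 0.04235) and 0.13 above Thiamet-G (adjusted p = 0.06026). The brighter probe set 200844_s_at differed by 0.09 from DMSO (adjusted p = 0.2516). The call on 200845_s_at was lost without any 1 array other than Thiamet-G replicate 2 (adjusted p up to 0.1271). Across arrays the PRDX6 probe sets correlated at r = 0.767 at 48 h (n = 9) and at r = -0.391 over 0 to 24 h (n = 18).

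PRDX2, the other cytosolic 2-cysteine peroxiredoxin (chr19:12796823-12801800), differed with Thiamet-G, not with 5SGlcNAc, on 2 of its 4 probe sets. On 39729_at it read 12.92, 12.87 and 12.94 in 5SGlcNAc arrays, 12.73, 12.70 and 12.74 in Thiamet-G arrays, and 12.90, 12.95 and 12.94 in DMSO arrays. On 211658_at it read 10.47, 10.49 and 10.41 in 5SGlcNAc arrays, 10.19, 10.18 and 10.22 in Thiamet-G arrays, and 10.52, 10.41 and 10.42 in DMSO arrays. On both probe sets the Thiamet-G arrays lay below all others, and the 5SGlcNAc and DMSO arrays overlapped. PRDX2 fell with Thiamet-G by 0.21 on 39729_at (adjusted p = 0.03897) and by 0.25 on 211658_at (adjusted p = 0.03037). The call on 39729_at was lost without any 1 of the 9 arrays (adjusted p 0.05394 to 0.1339), and that on 211658_at without any of 7 (up to 0.09936), with 5SGlcNAc replicate 2 and Thiamet-G replicate 2 the exceptions. After median centring of the arrays the differences were -0.17 (adjusted p = 0.1229) and -0.21 (adjusted p = 0.0758).

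The inhibitors differed from each other in PRDX2 by 0.19 on 39729_at (adjusted p = 0.02104) and by 0.26 on 211658_at (adjusted p = 0.008485), higher with 5SGlcNAc. The first was lost without 5SGlcNAc replicate 1 or 3 or Thiamet-G replicate 1 (adjusted p up to 0.07899). Another probe set, 215067_x_at, whose suffix marks probes that can bind other transcripts, differed from DMSO by 0.22 with 5SGlcNAc (adjusted p = 0.06409) and by 0.003 with Thiamet-G. The dimmest, 201006_at, differed by 0.05 and -0.02 with 5SGlcNAc and Thiamet-G. Over the 9 arrays of 48 h, 39729_at correlated at r = 0.878 with 211658_at and at r = 0.331 with 215067_x_at.

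PRDX3, the mitochondrial peroxiredoxin (chr10:119167720-119178812), passed in no comparison at 48 h. Its brighter probe set 201619_at averaged 13.29 ± 0.06, 13.38 ± 0.05 and 13.34 ± 0.02 in 5SGlcNAc, Thiamet-G and DMSO arrays (SD, n = 3 each), which overlapped. The difference of 5SGlcNAc from DMSO was -0.05 (95% interval -0.16 to 0.05). No probe set of the mitochondrial genes TXNRD2, TXN2 and PRDX3 passed in any of the 3 comparisons at 48 h. Of all probe sets, 7.52% passed for 5SGlcNAc against DMSO, 2.1% for Thiamet-G against DMSO and 9.98% between the inhibitors. The 95% intervals of the mitochondrial 5SGlcNAc differences from DMSO ended at 0.25 or lower. The widest, of TXNRD2 210803_at, takes in the differences of TXN 208864_s_at (0.19) and PRDX1 (0.17). A difference between mitochondrial and cytosolic genes was not tested.

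**Figure D2:**
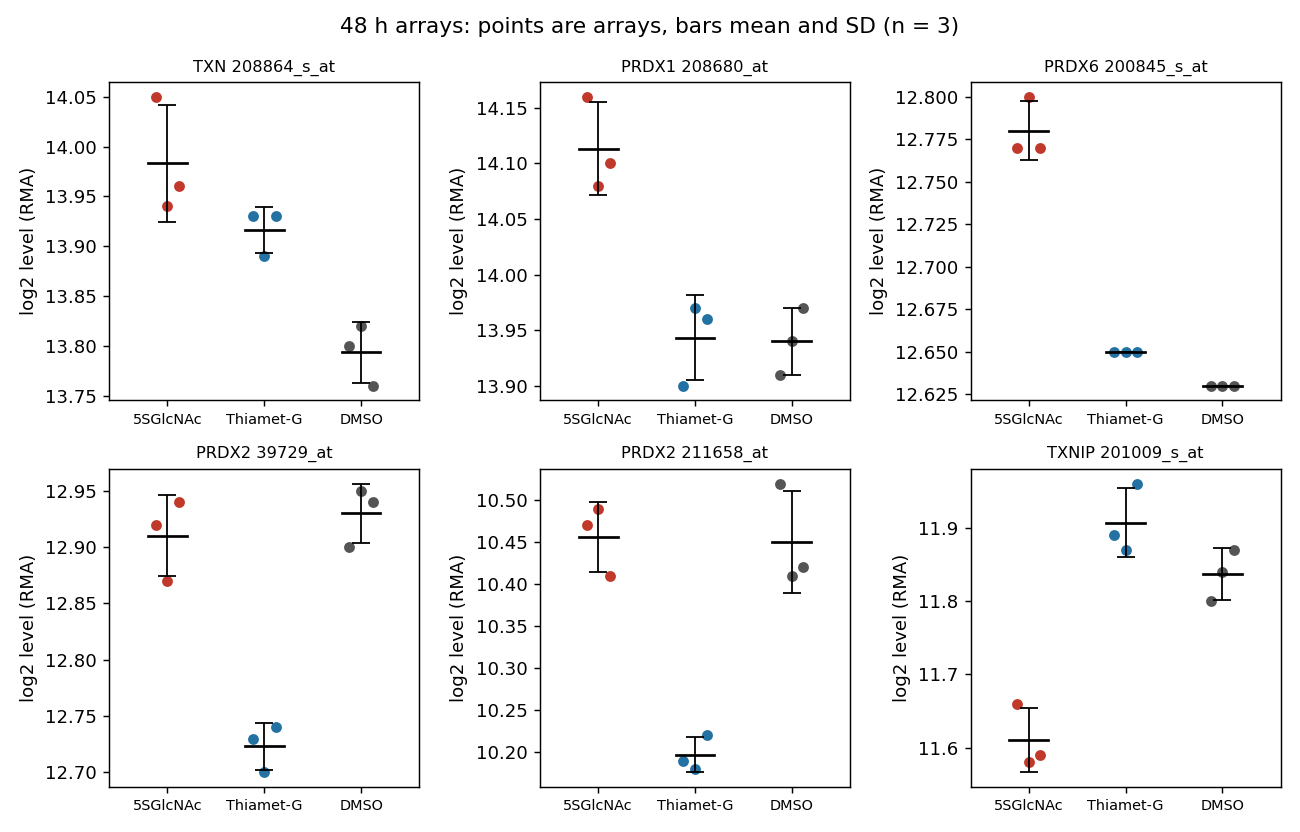
Log2 levels on the 48 h arrays for 6 probe sets, with points for arrays and bars for mean and SD (n = 3). The 5SGlcNAc arrays are highest for TXN, PRDX1 and PRDX6 and lowest for TXNIP 201009_s_at, and the Thiamet-G arrays are lowest on both PRDX2 probe sets.

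TXNIP (chr1:145992435-145996579) was lower with 5SGlcNAc. The brightest probe set, 201010_s_at, read 12.48, 12.50 and 12.49 in 5SGlcNAc arrays, 12.75, 12.76 and 12.76 in Thiamet-G arrays, and 12.68, 12.68 and 12.74 in DMSO arrays. The 3 groups did not overlap, with 5SGlcNAc lowest and Thiamet-G highest. Against DMSO, TXNIP fell with 5SGlcNAc by 0.21 ± 0.04 (SE) on this probe set, to 0.86 of the DMSO signal (adjusted p = 0.01257), and by 0.23 on 201009_s_at (adjusted p = 0.01784). On 201008_s_at the difference was -0.13 (adjusted p = 0.2189). The call on 201010_s_at was lost without DMSO replicate 3 or 5SGlcNAc replicate 1 (adjusted p up to 0.05495), and that on 201009_s_at without DMSO replicate 2 or 3 or 5SGlcNAc replicate 2 or 3 (up to 0.06641).

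The Thiamet-G differences of TXNIP from DMSO were 0.06, 0.07 and 0.21 on 201010_s_at, 201009_s_at and 201008_s_at, and none passed (adjusted p 0.4995, 0.4727 and 0.1034). Between the inhibitors TXNIP was lower with 5SGlcNAc on all 3, by -0.27, -0.30 and -0.33 (adjusted p = 0.003195, 0.004058 and 0.006236), and these calls held without any 1 array. The 3 probe sets correlated at r = 0.828 to 0.964 over the 9 arrays of 48 h and at r = 0.95 to 0.957 over the 18 others. TXNRD1 correlated with TXNIP 201010_s_at, 201009_s_at and 201008_s_at at r = -0.934, -0.894 and -0.646 over the arrays of 48 h. Over 0 to 24 h the values were -0.726, -0.737 and -0.664. The points share treatment groups and times.

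In all, 6 of the 19 probe sets passed for 5SGlcNAc against DMSO at 48 h, 4 higher and 2 lower, where 7.52% of all probe sets passed, 1.95% higher and 5.57% lower. The count was 2 or 3 without any 1 of the 5SGlcNAc or DMSO arrays or Thiamet-G replicate 3. For Thiamet-G against DMSO 2 of 19 passed, both lower, where 2.1% of all probe sets passed, 0.289% higher and 1.81% lower, and 0 or 1 passed without any 1 array other than Thiamet-G replicate 2. Between 5SGlcNAc and Thiamet-G 7 of 19 passed, 4 higher and 3 lower, where 9.98% of all passed, 4.72% higher and 5.26% lower. Probe sets of a gene are not independent. Counted by the brightest probe set per gene, 4 of 9, 1 of 9 and 4 of 9 genes passed in these 3 comparisons, where 8.81%, 2.52% and 11.6% of all genes did. The median differences of the 9 genes were 0.04, 0.03 and 0.07, beside 0.01, -0.01 and 0.02 over all genes. The 2 comparisons against DMSO share the DMSO arrays.

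Before 48 h the inhibitors were measured on single arrays per time, so their mean effect over 2, 4, 6, 8 and 24 h was tested with times in place of replicates. None of the 19 probe sets passed in limma for 5SGlcNAc against DMSO, Thiamet-G against DMSO or 5SGlcNAc against Thiamet-G, where 0%, 0% and 0.0944% of all probe sets did. At an unadjusted p under 0.05 there were 0, 0 and 1 of the 19, beside 870, 1598 and 2423 of 19064. The mean TXNRD1 difference of 5SGlcNAc from DMSO was 0.07 ± 0.09 (SE; 95% interval -0.12 to 0.26). The single times were unlike, however, with differences of 0.03, -0.01, -0.08 and -0.02 at 2, 4, 6 and 8 h and of 0.43 at 24 h. At 24 h the single arrays read 13.63 in 5SGlcNAc, 12.99 in Thiamet-G and 13.19 in DMSO, values that have no replicate. For TXNIP 201010_s_at the difference of 5SGlcNAc from DMSO was -0.12 to 0.03 at 2 to 8 h and -0.30 at 24 h.

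The 5SGlcNAc effect on TXNRD1 at 48 h exceeded its mean effect over 2 to 24 h by 0.65 ± 0.12 (SE; adjusted p = 0.01143 in limma), 1 of 19 probe sets to pass where 0.986% of all did. The spread in this test was estimated jointly from the 48 h replicates and the single arrays of 2 to 24 h. Because the mean over 2 to 24 h includes the difference of 0.43 at 24 h, the test cannot tell an effect of 48 h from one already present at 24 h. The 48 h arrays differ from the others in their decimals and medians, as given above, and the labels do not say whether they were processed with them, so time and any difference in processing cannot be told apart here. The same difference was -0.13 for TXNIP 201010_s_at (adjusted p = 0.6126), 0.15 for TXN 208864_s_at (adjusted p = 0.3303) and 0.15 for PRDX1 (adjusted p = 0.2995). For Thiamet-G none of the 19 passed in limma, where 0.0105% of all did, and 2 had an unadjusted p under 0.05, beside 1170 of all.

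TXNRD1 was higher and TXNIP lower at 24 h than at 0 h in all 3 treatment series, DMSO included. TXNRD1 averaged 12.56 ± 0.04 at 0 h, 12.64 ± 0.04 at 2 h, 12.68 ± 0.06 at 4 h, 12.87 ± 0.05 at 6 h, 12.92 ± 0.01 at 8 h and 13.27 ± 0.33 at 24 h (SD over the 3 series). The spread was widest at 24 h, where the 5SGlcNAc array stood apart. At 24 h TXNRD1 rose against 0 h by 0.71 ± 0.11 (SE), or 1.64-fold (adjusted p = 0.0009385), with changes of 1.03 in the 5SGlcNAc, 0.44 in the Thiamet-G and 0.67 in the DMSO series. Without the 5SGlcNAc series the change was 0.55 (adjusted p = 0.02053). At 6 and 8 h the changes were 0.31 and 0.37 (adjusted p = 0.1235 and 0.06142).

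TXNIP had its lowest mean at 24 h on all 3 probe sets, and its highest at 4 h on 201010_s_at and 201009_s_at and at 6 h on 201008_s_at. On 201010_s_at it averaged 12.54 ± 0.03 at 0 h, 12.72 ± 0.07 at 2 h, 12.83 ± 0.06 at 4 h, 12.75 ± 0.07 at 6 h, 12.68 ± 0.01 at 8 h and 12.14 ± 0.19 at 24 h (SD over the 3 series). All 3 arrays of 24 h lay below all arrays of other times up to 8 h. The difference of 0.29 at 4 h did not pass (adjusted p = 0.05774), and at 4 h the ACTB control probe sets of the Thiamet-G and DMSO arrays stood apart, as given above. At 24 h TXNIP fell by 0.40 on each probe set (adjusted p = 0.004434, 0.009981 and 0.01946), by 0.59 in the 5SGlcNAc, 0.29 in the Thiamet-G and 0.33 in the DMSO series on 201010_s_at. The call on 201010_s_at was lost without the 5SGlcNAc series (-0.31, adjusted p = 0.08221) or the DMSO series (-0.44, adjusted p = 0.07571). The 201009_s_at call was lost without the same series (-0.32 and -0.42), and the 201008_s_at call without any 1 series, with -0.24 in the absence of 5SGlcNAc.

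**Figure D3:**
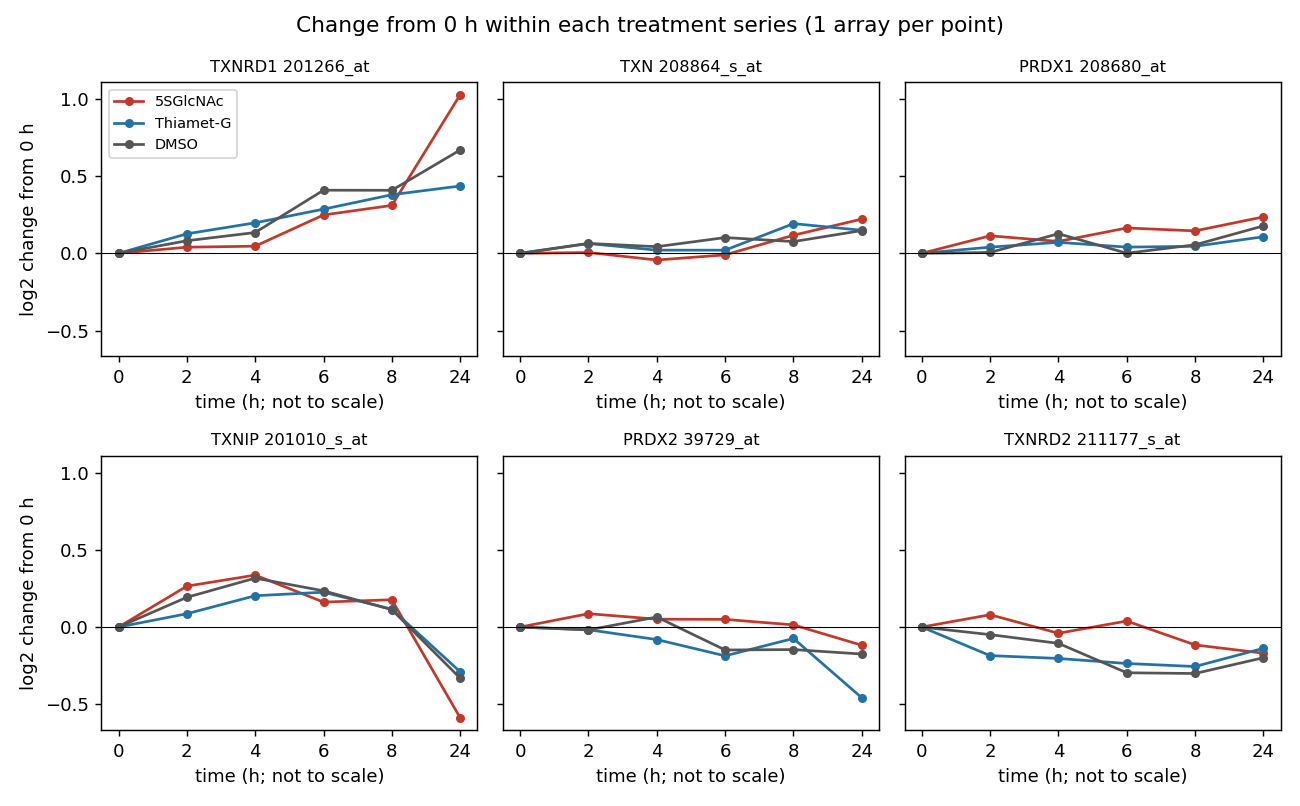
Log2 change from 0 h within each treatment series for 6 probe sets against time in hours on a categorical axis, 1 array per point. TXNRD1 stands above 0 at 24 h in all 3 series (1.03, 0.44 and 0.67 in 5SGlcNAc, Thiamet-G and DMSO), and TXNIP below 0 (-0.59, -0.29 and -0.33).

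Of the other genes PRDX2 fell at 24 h by 0.25 on 39729_at (adjusted p = 0.04096), a call lost without any 1 series. Without the Thiamet-G series the value was -0.15 (adjusted p = 0.4016). TXN 208864_s_at and PRDX1 were 0.17 higher each (adjusted p = 0.06966 and 0.06387), and TXNRD2 211177_s_at differed by -0.17 (adjusted p = 0.1729). In all, 5 of 19 probe sets passed at 24 h, 1 higher and 4 lower, where 7.84% of all did, 3.82% higher and 4.02% lower. The count was 1 without the 5SGlcNAc series, 3 without the Thiamet-G series and 1 without the DMSO series. The lower calls included all 3 probe sets of TXNIP. Counted by the brightest probe set per gene, 3 of 9 genes passed at 24 h, where 8.74% of all genes did. None of the 19 passed in limma at 2, 4, 6 or 8 h, where 0.462%, 2.71%, 3.35% and 4.65% of all did. At an unadjusted p under 0.05 there were 1, 4, 7 and 5 of the 19, beside 1401, 3133, 3202 and 4069 of 19064.

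Other NRF2 genes rose with 5SGlcNAc at 48 h beside TXNRD1. Of 20 listed NRF2 genes (NFE2L2 and KEAP1 included) 17 were measured, and 13 rose with 5SGlcNAc against DMSO and none fell, with a median difference of 0.41 beside 0.01 over all genes, of which 2.38% rose and 6.43% fell. This list and those below were chosen with earlier results of these data known, so their counts are not independent tests. HMOX1, which degrades haem, rose by 2.36 (adjusted p = 4.74e-08), NQO1, a quinone reductase, by 1.07, and GCLM, a subunit of the enzyme that begins glutathione synthesis, by 1.203. TRIM16 rose by 1.47, and SLC7A11, the cystine transporter, by 0.95. NFE2L2, which encodes NRF2, differed by 0.01 (adjusted p = 0.944) and KEAP1 by 0.09 (adjusted p = 0.2389). Between the inhibitors KEAP1 was 0.24 higher with 5SGlcNAc (adjusted p = 0.008716). None of the 17 passed for Thiamet-G against DMSO, with a median of 0.01, where 2.52% of all genes passed. Against Thiamet-G, 15 were higher with 5SGlcNAc, where 11.6% of all genes passed. At 24 h against 0 h 8 of 17 rose and none fell, where 8.74% of all genes passed. SLC7A11 rose by 0.70, ME1, which makes NADPH, by 0.63, NQO1 by 0.50 and GCLC by 0.47.

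The genes whose levels ran most like those of TXNRD1 were chosen by the lower of their Pearson correlations over the 9 arrays of 48 h and the 18 others. They were SLC7A11 (r = 0.99 and 0.937), NQO1 (0.99 and 0.923), GCLM (0.989 and 0.911), ZCCHC2 (0.927 and 0.909) and FTL, the ferritin light chain (0.987 and 0.905). For TXNIP 201010_s_at they were MCM5 (0.925 and 0.906), CYP1B1 (0.948 and 0.899), HMGCS1 (0.909 and 0.887), PTGS2 (0.884 and 0.91) and DNPEP (0.923 and 0.871). These values describe arrays that share treatments and times, and carry no test.

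Of 30 other listed genes of the thioredoxin fold and its partners 21 were measured, and 0 rose and 2 fell with 5SGlcNAc against DMSO, where 2.38% of all genes rose and 6.43% fell: MSRB2, a mitochondrial methionine sulfoxide reductase, and MAP3K5, the ASK1 kinase that thioredoxin binds, each by 0.31 (adjusted p = 0.004496 and 0.02395). Their median difference was 0.01, beside 0.01 over all genes. PRDX4, the peroxiredoxin of the endoplasmic reticulum, differed by -0.003 (adjusted p = 0.9784). With Thiamet-G 1 of 21 fell against DMSO, the selenoprotein MSRB1, by 0.25 (adjusted p = 0.03037), where 2.52% of all genes passed. At 24 h NXN, RRM2, a subunit of ribonucleotide reductase, and GLRX rose against 0 h by 0.33, 0.34 and 0.28, and none fell, where 8.74% of all genes passed. At earlier times the list had 1 gene higher at 4 h, 2 at 6 h and 3 at 8 h and none lower, where 2.86%, 3.74% and 5.32% of all genes passed. TMX4, a transmembrane protein of the thioredoxin fold, was among them at all 3 times (0.40, 0.40 and 0.51), RRM2 at 6 and 8 h (0.28 and 0.35) and RRM1 at 8 h (0.22). These genes of 4 to 8 h were named after their values were seen.

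Of 25 listed genes of selenoproteins and selenocysteine synthesis, a class to which both reductases belong, 15 were measured. GPX1, the cytosolic glutathione peroxidase, fell with 5SGlcNAc against DMSO by 0.33 (adjusted p = 0.004286) and none rose, so 1 of 15 passed, where 8.81% of all genes did. With Thiamet-G against DMSO 3 fell, GPX3 by 0.34, MSRB1 by 0.25 and SELENOW by 0.23 (adjusted p = 0.02121, 0.03037 and 0.02587), and none rose, where 2.52% of all genes passed. Between the inhibitors 4 were higher with 5SGlcNAc, including GPX3 by 0.34, MSRB1 by 0.27 and SEPHS2, which makes the selenium donor, by 0.23, and GPX1 was lower, where 11.6% of all genes passed. At 24 h against 0 h TRNAU1AP rose by 0.38 and SCLY, which releases selenium from selenocysteine, fell by 0.29, where 8.74% of all genes passed.

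Of 16 listed genes of alpha arrestins, MondoA and its partners and glucose uptake, which share their setting with TXNIP, 12 were measured. MNT, a partner of MLX, fell with 5SGlcNAc against DMSO by 0.34 (adjusted p = 0.01418) and the glucose transporter SLC2A3 by 0.30 (adjusted p = 0.04377), and none rose. Of all genes 6.43% fell and 2.38% rose in that comparison. The median difference of the 12 was 0.03 beside 0.01 over all genes. With Thiamet-G against DMSO none of the 12 passed, where 2.52% of all genes did. Between the inhibitors the same 2 genes were lower with 5SGlcNAc, SLC2A3 by -0.40 and MNT by -0.29, where 11.6% of all genes passed. At 24 h against 0 h HK2, a hexokinase, rose by 0.35 and SLC2A1 fell by 0.28, where 8.74% of all genes passed. At 4 h, named after their values were seen, HK2 fell by 0.29 (adjusted p = 0.03164), SLC2A3 rose by 0.43 (adjusted p = 0.01129) and MLX, the partner of MondoA, fell by 0.36 (adjusted p = 0.003508), at the time when the ACTB control probe sets of 2 arrays stood apart. Of all genes 2.86% passed at 4 h. The part of RNA integrity in the 4 h values was not tested. Of 10 other antioxidant genes 8 were measured. GSR, which reduces glutathione with NADPH, rose with 5SGlcNAc against DMSO by 0.41 (adjusted p = 0.01155), and CAT, the catalase, fell by 0.22 (adjusted p = 0.02306). GPX1 fell as well, so 1 of the 8 rose and 2 fell, where 2.38% of all genes rose and 6.43% fell. With Thiamet-G against DMSO GSR differed by -0.01 and none of the 8 passed, where 2.52% of all genes did. The transcripts of the inhibitors' own targets moved as well, with OGT 0.86 and OGA -1.08 for 5SGlcNAc and OGT -0.24 and OGA 0.62 for Thiamet-G against DMSO at 48 h.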

How the data were processed

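Each of the 27 samples was 1 Affymetrix array, mapped to its treatment and time by its labels. The deposited values are log2 levels per probe set, made by the authors with RMA (no version given), per the submitters' processing notes. The method equalises distributions among arrays processed together, so it can hide a shift common to most genes. Of 22277 probe sets, 62 controls, 1043 naming several genes and 2108 naming none were left out, and none of the rest was filtered. For 19052 of 19064 the Entrez identifier matched RefSeq and the RefSeq symbol was used, whether or not it differed from the platform's. Tests used limma 3.58.1 (lmFit, then eBayes; R 4.3.3) with two-sided p-values adjusted by Benjamini-Hochberg over 19064 probe sets, at a threshold of 0.05. The 9 arrays of 48 h shared 1 estimate of spread, time was a block over 2 to 24 h, and the treatment series was a block for times against 0 h. "Rose" and "fell" mean past this threshold. The 9 genes and the lists were chosen with earlier results of these data known. All probe sets of the 9 genes were named, up to 4 genes per list by smallest p in the 48 h and 24 h comparisons, 12 genes always (ARRDC4 and PRDX5 had no probe set naming 1 gene), and the 5 most like TXNRD1 and TXNIP. A gene of a list was represented by its brightest probe set. Scripts were tested on simulated data. Same-numbered 48 h arrays of different treatments had deviations correlated at -0.324 to 0.178 and differently numbered ones at -0.233 to 0.24, so the numbers were not taken as pairs. Alternatives were quantile normalization, median centring, 1 probe set per gene, a filter on dim probe sets, no _x_at sets, trended robust variance, other array sets and a replicate block. The number of arrays limits the precision.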

Additional observations from a re-analysis of the deposited data

Results flagged for a closer look

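The difference of 5SGlcNAc from DMSO for TXNRD1 201266_at was larger at 48 h than over 2 to 24 h by 0.65 on the log2 scale (95% interval 0.40 to 0.90, adjusted p = 0.01143 in limma), which was picked out because the test of the difference between both effects passed. The effects behind it were 0.72 at 48 h (3 arrays a group) and 0.07 over 2 to 24 h (5 times), with 0.43 at 24 h. The test cannot tell an effect of 48 h from one already present at 24 h. Every 5SGlcNAc array of 48 h was above every DMSO array. The 48 h arrays were deposited to 2 decimals and the others to 6, with other medians, and the labels do not say whether they were processed together.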

How the results depend on the processing

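Of 615 values of single probe sets under alternatives, 528 kept their side of the threshold and 86 that had passed no longer did. In 1 case a call was gained (TXN with Thiamet-G against DMSO under trended robust variance, adjusted p = 0.02323), and 0 that passed changed sign. The 615 include probe sets that did not pass in the main fit and so had no call to lose. For 5SGlcNAc against DMSO at 48 h the call was lost under 9 of 17 alternatives for TXN 208864_s_at, 10 of 17 for PRDX1 and 2 of 17 for TXNIP 201010_s_at. For Thiamet-G against DMSO it was lost under 12 of 17 for PRDX2 39729_at. TXNRD1 passed under all 17 alternatives for 5SGlcNAc against DMSO at 48 h (0.70 to 0.74), all 11 for 24 h against 0 h and all 7 for the difference between effects. The count of 6 for 5SGlcNAc against DMSO became 3 with the arrays of both groups alone, 3 with the replicate block and 2 to 6 leaving out 1 array. The count of 2 of 19 for Thiamet-G against DMSO became 1 with quantile normalization and 0 with median centring. With the brightest probe set per gene it was 1 of 9, and with trended robust variance 4. The arrays of both groups alone and the replicate block gave 0 each, and leaving out 1 array gave 0 to 2. The calls over all probe sets in that comparison changed as well. Of 19064 probe sets, 401 passed in the main fit, 201 with quantile normalization and 158 with median centring. With the brightest probe set per gene 417 of 11963 passed. Between the inhibitors 7 of 19 became 4 of 9 with the brightest probe set per gene, where fewer probe sets were tested, and 5 to 7 of 19 leaving out 1 array. The calls over all were 1902 of 19064 there in the main fit and 1634 of 11963 with the brightest probe set per gene, so the counts have unlike totals. The replicate numbers of 48 h were not taken as pairs. At 4 h against 0 h the count of 0 became 1 with quantile normalization, median centring, the brightest probe set per gene or trended robust variance and 2 without dim probe sets. At 6 h it became 1 with trended robust variance. At 8 h it became 1 with quantile normalization, 3 without dim probe sets and 2 with trended robust variance. At 24 h the count of 5 became 1, 3 and 1 without the 5SGlcNAc, Thiamet-G and DMSO series. For PRDX2 at 24 h, leaving out the arrays of 4 h, an alternative chosen after seeing the data, gave an adjusted p of 0.0581. For the other counts of this paragraph the calls over all probe sets are not given beside them. The causes were not tested.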
